A study of Mus musculus with 6 samples.

Results

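The genes described here are 31 mouse genes of glycolysis and of the response to low oxygen. They were chosen by name, with earlier results of these data known, as 16 glycolytic enzymes and 15 other known targets of the hypoxia response. Every array probe whose transcript accession belongs to one of them was kept. That gave 50 probes, 29 for the enzymes and 21 for the other targets, out of 55418 probes and 20801 named genes on the arrays. All 50 probes entered the tests. Ankrd37, Pdk1 and Aldoc rose in both Tet knockout lines, Ldha rose on its only unsaturated probe, and several of the brightest glycolytic enzymes could not be measured because their probes were saturated.

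Glycolysis breaks glucose down to pyruvate in the cytoplasm, and lactate dehydrogenase turns pyruvate into lactate so that the pathway can run without oxygen. When oxygen is scarce, prolyl hydroxylases stop marking the HIF-alpha proteins for destruction, and HIF dimers bind DNA and switch on transporters, glycolytic enzymes, brakes on mitochondrial oxidation, mitophagy genes and secreted vessel factors. Embryonic stem cells are known for rapid glycolysis, and the inside of a growing cell aggregate can be short of oxygen.

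The study asked how stem cells without TET dioxygenases, which oxidise 5-methylcytosine in DNA, differentiate. There were 3 groups of embryoid bodies, stem cell aggregates that form tissues in culture: line TKO_26 and line TKO_29, both Tet1/2/3 triple knockout and derived independently, and WT from 1 line. All shared a mixed 129/C57BL6 background and were grown for 10 days without the self-renewal factor LIF, 2 days in hanging drops and 8 days in suspension. Each line was measured on 2 one-colour arrays that the submitters call technical replicas, so the p-values below cover the spread between arrays of a line and not between cultures, and 2 arrays per line limit the precision of every value.

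Signals are given as log2 of the processed signal minus the 75th percentile of the same array, called scaled signal below. A scaled signal can be compared between arrays for a probe, not between probes. A gene is said to have risen or fallen where TKO_26 and TKO_29 both differed from WT the same way, by 2-fold or more and with an adjusted p under 0.05 (limma, over all 28267 probes tested). Both lines were set against the same WT arrays.

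The arrays had 38.4% to 55.8% of spots well above background, and repeated spots scattered most on TKO_26 replicate 1 (median coefficient of variation 14.2%, elsewhere 4.32% to 5.61%). On the single slide, one column carried the WT arrays and the other column the TKO arrays, so genotype and slide position cannot be told apart. Of the targeted genes, Tet1 and Tet2 fell, and Tet3 did not pass the test. Cell type markers differed as well. All 7 tested red cell markers fell, as did 7 of 8 endothelial, 7 of 7 cardiac (on probes free of saturation) and 7 of 8 visceral endoderm markers. So did 7 of 7 trophoblast markers, 4 of 8 fibroblast and feeder markers and 1 of 3 macrophage markers (Csf1r). The remaining endothelial marker, Pecam1, differed by 0.46 in TKO_26 and 0.57 in TKO_29 without passing. Of the other macrophage markers, Itgam was lower, by -0.48 in TKO_26 (adjusted p = 0.417) and -2.02 in TKO_29 (adjusted p = 0.0166). Fcgr3 gave no fold in TKO_26 and was at least 1.17 higher in TKO_29 (adjusted p = 0.0389), the only line through which it was tested. Nanog and Sox2 rose among 6 pluripotency markers. The linear signals of the red cell markers, in multiples of the array's 75th percentile, summed to 0.0544 to 0.0569 in TKO_26, 0.0461 to 0.0468 in TKO_29 and 9.16 to 9.88 in WT, and Hbb-bh1, Hbb-y, Hba-x and Alas2 stood clear of background on none of the TKO arrays. The 6 pluripotency markers with an unsaturated probe summed to 3.67 to 4.03 in TKO_26, 4.10 to 4.198 in TKO_29 and 2.60 to 2.89 in WT. They did not all go one way. Zfp42 was lower, by -0.98 in TKO_26 (adjusted p = 0.0594) and -0.93 in TKO_29 (adjusted p = 0.0481). Pou5f1, Klf4 and Tdgf1 were higher without meeting the rule in both lines. The part of cell type makeup in the values below was not tested, and in bulk RNA fewer cells of a type and less RNA per cell cannot be told apart.

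Many glycolytic enzymes were too bright for the scanner, which decides what can be read from them. Of the 29 enzyme probes 12 were saturated on all 6 arrays (41.4%), and 69.0% were saturated on at least 1 array. None of the 21 probes of the other targets was saturated on all arrays, and 33.3% were saturated on at least 1. Per array, 21 and 24 of the 50 probes were saturated in TKO_26, 27 and 24 in TKO_29, and 12 and 19 in WT. The 75th percentile of the unscaled signal was 6535 and 11278 in TKO_26, 24148.5 and 12169 in TKO_29, and 5255 and 8881 in WT. Over all probes tested, 2.63% were saturated on all arrays and 8.40% on at least 1.

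A saturated probe sits at the scanner's ceiling, and after scaling this ceiling takes the value that the array's own percentile gives it. The median scaled signal of all saturated probes was 3.25 and 2.52 on the arrays of TKO_26, 1.42 and 2.41 on those of TKO_29, and 3.65 and 2.87 on those of WT. The 12 member probes saturated on all arrays kept close to it: they ranged over 2.99 to 3.87 and 2.29 to 2.83 in TKO_26, 1.18 to 1.69 and 2.16 to 2.66 in TKO_29, and 3.42 to 3.84 and 2.61 to 3.11 in WT. Their differences from WT, such as -0.23 in TKO_26 and -1.39 in TKO_29 for aldolase A (Aldoa), therefore follow the ceiling and give no fold. The plot of these probes by array shows the shared course.

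**Figure D1:**
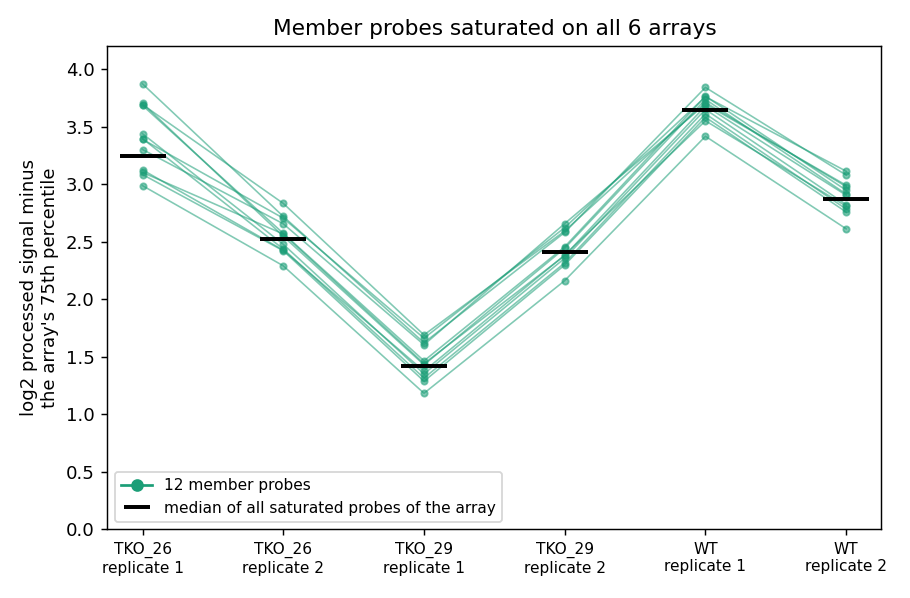
Scaled signal (log2, y axis) of the 12 member probes saturated on all 6 arrays, by array (x axis); each line joins 1 probe and black bars mark the median of all saturated probes of the array. The probes follow the bars, which stand at 3.25 and 2.52 in TKO_26, 1.42 and 2.41 in TKO_29 and 3.65 and 2.87 in WT.

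Aldoa, Pgk1, Pgam1, Eno1 and Pkm had no other probe, so for these 5 enzymes of the middle and end of the pathway no difference could be measured. A further 8 members (Gpi1, Aldoc, Tpi1, Gapdh, Slc2a1, Slc2a3, Slc16a3 and Ddit4) had each of their probes saturated on some or all arrays, and give at most a bound in at least 1 line. The remaining 18 members, 7 enzymes and 11 other targets, had a probe saturated on no array, and the results below turn on these.

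On the probes with the highest mean signal, the one probe per gene used for counting, 3 of the 31 members rose: Aldoc, the aldolase C isozyme best known from brain, Pdk1, a kinase that slows the making of acetyl-CoA from pyruvate, and Ankrd37, an ankyrin repeat protein known as a HIF target. No member fell. Of all genes and features 4.19% rose and 6.22% fell by the same rule. Because the members were chosen with earlier results of these data known, the shares here and below describe the list and test nothing about it. Taken line by line, these 3 were the members called higher in TKO_26 (5.81% of all genes and features), and 5 were in TKO_29 (8.55% of all), which adds Hk2 and Pfkl. On the brightest probe saturated on no array, a choice made after the saturation flags were seen, 3 of 18 members rose (Ldha, Pdk1 and Ankrd37), against 4.55% of all genes and features with such a probe, and none fell, against 6.69%. On these probes 3 were called higher in TKO_26 (6.26% of all) and 6 in TKO_29 (9.48% of all), the last adding Hk2, Pfkl and Bnip3.

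Most of the smaller differences lay on the same side. At an adjusted p under 0.05 and any size, 8 of the 18 were higher in TKO_26 (11.2% of all), 10 of 18 in TKO_29 (17.3% of all) and 8 in both (8.89% of all), namely Hk1, Hk2, Ldha, Pdk1, Bnip3, Ankrd37, Ndrg1 and Adm. None was lower, against 12.0% of all in TKO_26 and 20.5% in TKO_29. Of the 8 higher in both lines, only Ankrd37 kept an adjusted p under 0.05 in both under every alternative that was run. For the others the highest adjusted p in TKO_26 over the alternatives lay between 0.127 (Pdk1) and 0.946 (Ndrg1). For 13 of the 18, all 4 TKO arrays lay above both WT arrays (27.3% of all), and for 1, Eno2, all 4 lay below (25.9% of all). Egln1 is one of the 13, and its probe entered the test only through TKO_29, where it is high. Without it the counts were 12 and 1 of 17. The median difference was 0.52 in TKO_26 and 0.73 in TKO_29 for the 7 enzymes, and 0.62 and 0.71 for the 11 other targets, while the median over all genes and features was 0.06 and -0.01. In these medians Egln1 and Car9, near background, enter at their fitted values, and without Egln1 the 10 other targets had medians of 0.46 and 0.68. The highest-signal probes give medians of -0.14 in TKO_26 and -1.21 in TKO_29 for the 16 enzymes, values that carry the ceiling described above, and 0.27 and 0.35 for the 15 other targets.

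**Figure D2:**
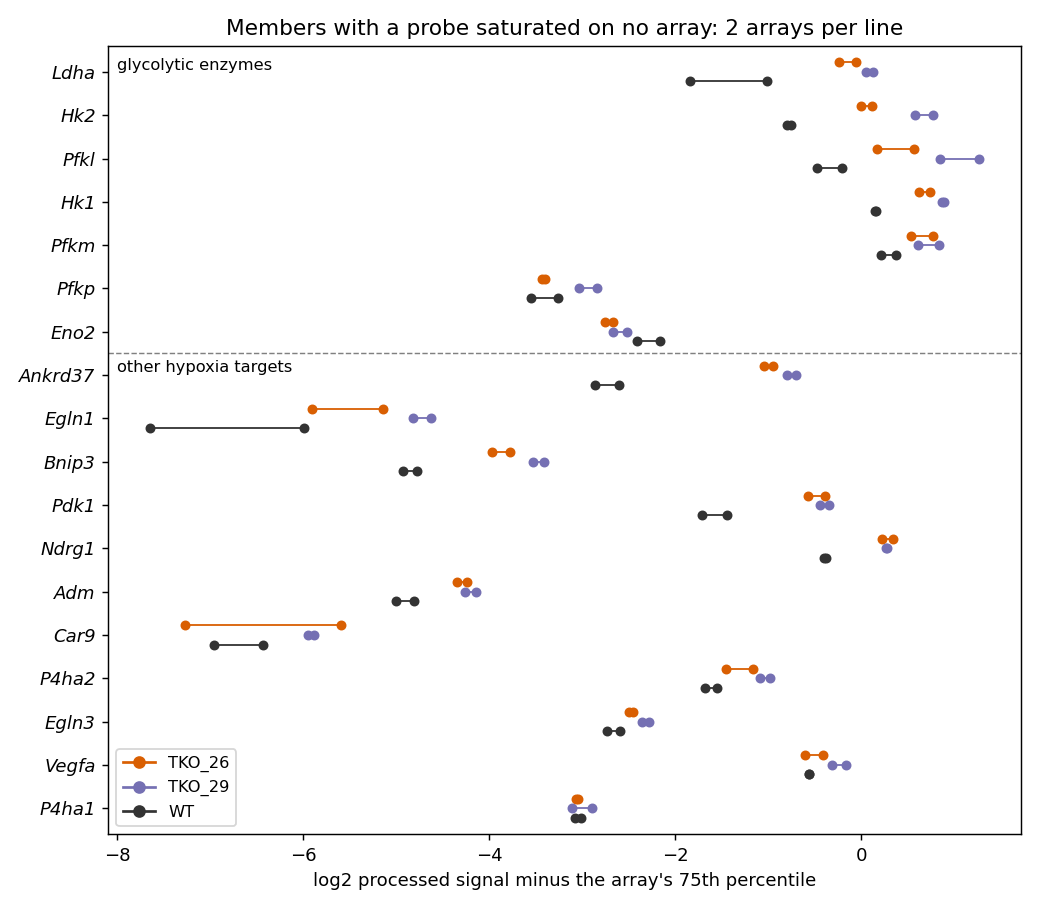
Scaled signal (log2, x axis) of the 18 members with a probe saturated on no array, 1 probe per gene, with TKO_26 above TKO_29 above WT; each dot is 1 array and the bar joins the 2 arrays of a line. For 13 members the 4 TKO dots lie to the right of both WT dots, and for Eno2 they lie to the left.

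Ankrd37 had the largest measured difference among the members. Its scaled signal was -1.04 and -0.95 in TKO_26, -0.70 and -0.79 in TKO_29, and -2.86 and -2.60 in WT. All TKO arrays stood far above both WT arrays, and the lines lay 0.25 apart (adjusted p = 0.34). The difference was 1.74 ± 0.15 (SE) in TKO_26 (3.33-fold, adjusted p = 0.00315) and 1.98 ± 0.15 in TKO_29 (3.95-fold, adjusted p = 0.00201). Both calls were kept under every alternative that was run.

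Promoters were considered only for members whose highest-signal probe gave a fold and was well above background on all 6 arrays. Those of the 5 with the largest mean differences are printed because HIF dimers bind the short core ACGTG. The variant GCGTG was searched too. The 250 bases before the most upstream RefSeq start of each gene, of 2 tabulated starts for Aldoc and for Pdk1, are shown 5′ to 3′ on the gene's strand (RefSeq, GRCm38.p6), with matches to either motif on either strand in capitals, overlapping matches included. They lie at chr8:45999851-46000100 (minus strand) for Ankrd37, chr11:78322823-78323072 (plus) for Aldoc, chr6:82774455-82774704 (minus) for Hk2, chr2:71872974-71873223 (plus) for Pdk1 and chr10:78009808-78010057 (minus) for Pfkl.
Ankrd37: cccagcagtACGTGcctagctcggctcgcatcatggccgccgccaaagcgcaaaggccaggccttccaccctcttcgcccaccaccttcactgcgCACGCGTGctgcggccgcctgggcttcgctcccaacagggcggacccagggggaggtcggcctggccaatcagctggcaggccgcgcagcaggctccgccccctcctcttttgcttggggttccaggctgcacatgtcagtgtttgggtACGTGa
Aldoc: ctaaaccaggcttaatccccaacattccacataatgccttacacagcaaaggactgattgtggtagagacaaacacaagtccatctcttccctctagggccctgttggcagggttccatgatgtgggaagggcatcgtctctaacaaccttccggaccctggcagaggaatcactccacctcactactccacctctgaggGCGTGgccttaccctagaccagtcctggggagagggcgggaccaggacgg
Hk2: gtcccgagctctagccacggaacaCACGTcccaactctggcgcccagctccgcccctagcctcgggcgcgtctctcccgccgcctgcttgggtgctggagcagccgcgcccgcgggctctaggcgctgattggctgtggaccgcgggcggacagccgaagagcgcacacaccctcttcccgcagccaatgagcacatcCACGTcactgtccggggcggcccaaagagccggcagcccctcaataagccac
Pdk1: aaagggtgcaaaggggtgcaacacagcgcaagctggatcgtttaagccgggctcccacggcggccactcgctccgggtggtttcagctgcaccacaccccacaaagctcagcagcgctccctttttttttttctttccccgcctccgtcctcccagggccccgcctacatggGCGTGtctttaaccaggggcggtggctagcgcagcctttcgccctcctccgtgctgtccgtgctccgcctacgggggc
Pfkl: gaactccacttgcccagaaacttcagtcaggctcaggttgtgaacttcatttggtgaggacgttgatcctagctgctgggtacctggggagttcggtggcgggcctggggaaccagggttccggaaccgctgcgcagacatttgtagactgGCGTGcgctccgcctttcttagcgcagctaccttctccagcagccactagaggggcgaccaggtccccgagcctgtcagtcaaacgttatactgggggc
The Ankrd37 window holds 4 matches, whose first bases lie 241, 155, 152 and 6 bases before the start, and those at 155 and 152 overlap. The Hk2 window holds 2, at 226 and 52 bases, and the others hold 1 each, at 50 bases in Aldoc, 78 in Pdk1 and 99 in Pfkl. Such letters are common: 38.6% of 27025 such windows, 1 per gene, hold at least 1. Of the 29 members with a window 22 hold one (75.9%), 10 of 16 enzymes and 12 of 13 other targets. Slc2a3 and Ndrg1 were not among the tabulated promoters. The windows were not matched for base composition, and a match describes letters only.

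The transporters bring glucose in and take lactate out. Slc2a1 and Slc2a3, which encode the glucose transporters GLUT1 and GLUT3, were saturated on all 4 TKO arrays and on WT replicate 2, but not on WT replicate 1, and give no fold. Slc16a3, the lactate exporter MCT4, was saturated on all 4 TKO arrays and on neither WT array with both of its probes. The brighter probe read 3.10 and 2.47 in TKO_26, 1.22 and 2.32 in TKO_29, and 2.69 and 2.34 in WT. Its bound was at least 1.20-fold higher in TKO_26 (adjusted p = 0.694), and in TKO_29 the ceiling lay below the WT values, so no fold can be given.

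Hexokinases trap glucose in the cell by phosphorylating it. Hk2, the inducible form, gave 0.00 and 0.11 in TKO_26, 0.58 and 0.77 in TKO_29, and -0.76 and -0.79 in WT. The groups did not overlap, and TKO_29 stood above TKO_26. Hk2 differed from WT by 1.45 ± 0.14 in TKO_29 (2.73-fold, adjusted p = 0.00338) and by 0.83 ± 0.14 in TKO_26 (1.78-fold, adjusted p = 0.0175), so that TKO_26 passed the test but not the 2-fold limit. Hk1, the housekeeping form, had 0.62 and 0.74 in TKO_26, 0.87 and 0.89 in TKO_29, and 0.15 and 0.16 in WT. That is 0.52 (adjusted p = 0.0429) and 0.73 (adjusted p = 0.013), under 2-fold in both lines. A dimmer Hk1 probe differed by 0.37 and 0.95 without passing.

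Phosphofructokinase makes the committed step of glycolysis, and its subunits come from separate genes for liver, muscle and platelet forms. Pfkl read 0.57 and 0.17 in TKO_26, 0.85 and 1.27 in TKO_29, and -0.20 and -0.48 in WT. It was higher on all TKO arrays, by 1.40 ± 0.24 in TKO_29 (2.63-fold, adjusted p = 0.013), while the 0.71 ± 0.24 of TKO_26 did not pass (adjusted p = 0.0983). Leaving out WT replicate 2 or TKO_29 replicate 2 ended the TKO_29 call (1.26 with adjusted p = 0.0521, and 1.19 with 0.0703). Pfkm had 0.77 and 0.54 in TKO_26, 0.61 and 0.84 in TKO_29 and 0.38 and 0.21 in WT, differences of 0.36 and 0.43 that did not pass.

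The probes of Pfkp disagreed. The brighter one differed by -0.01 in TKO_26 and 0.47 in TKO_29, neither past the test. The dimmer one read -5.40 and -6.34 in TKO_26, -10.64 and -9.72 in TKO_29, and -5.46 and -7.00 in WT. It was not well above background on either TKO_29 array, which puts it at least 9.45-fold lower there (adjusted p = 0.0126), while TKO_26 overlapped WT (0.37, adjusted p = 0.722). Which part of the transcript each probe reads was not analysed here.

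Aldolases split fructose bisphosphate, and triose phosphate isomerase joins the products into one stream. Aldoc read 1.51 and 1.65 in TKO_26, 1.22 and 1.41 in TKO_29, and 0.18 and 0.43 in WT. All TKO arrays were higher than both WT arrays, with TKO_29 replicate 1 at the ceiling. The difference was 1.28 ± 0.16 in TKO_26 (2.43-fold, adjusted p = 0.00891) and at least 1.01 in TKO_29 (at least 2.02-fold, adjusted p = 0.0114). The TKO_29 call was lost without WT replicate 1 (0.88), TKO_29 replicate 1 (1.11) or TKO_29 replicate 2 (0.91), with adjusted p of 0.0512, 0.0536 and 0.0702. The TKO_26 call was lost with normexp and quantile normalisation (1.23, adjusted p = 0.0734), and both were lost without the filter on dim probes (adjusted p = 0.0993 in TKO_26 and 0.0971 in TKO_29).

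Tpi1 had 2 probes. The brighter was saturated on all arrays but WT replicate 1. The dimmer read 1.31 and 1.29 in TKO_26, 1.53 and 2.36 in TKO_29, and -0.21 and 0.64 in WT, and only TKO_29 replicate 1 was saturated. Every TKO array was above both WT arrays on this probe, by 1.08 ± 0.40 in TKO_26 (2.12-fold, adjusted p = 0.122) and at least 1.73 in TKO_29 (at least 3.32-fold, adjusted p = 0.0284). Gpi1, which turns glucose phosphate into fructose phosphate, had 3 probes, 2 of them saturated on all arrays and the other on 5.

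Gapdh, the enzyme of the step that yields NADH, had 7 probes, more than any other member. Of these 4 were saturated on all arrays, 2 on 5, and 1 on both arrays of TKO_29 only. This last probe read 2.40 and 2.09 in TKO_26, 1.67 and 2.60 in TKO_29, and 1.11 and 1.70 in WT. It stood 0.84 ± 0.38 higher in TKO_26 (adjusted p = 0.191) and at least 0.73 in TKO_29 (adjusted p = 0.189), so neither line passed, and TKO_29 replicate 1 lay just under WT replicate 2.

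Ldha, which makes lactate from pyruvate, shows what the ceiling does. Its brightest probe was saturated on all arrays and read 3.70 and 2.55 in TKO_26, 1.43 and 2.44 in TKO_29, and 3.74 and 2.91 in WT. A middle probe, saturated on 3 of the 4 TKO arrays and no WT array, was at least 1.75-fold higher in TKO_26 (adjusted p = 0.225) and gave no fold in TKO_29. The dimmest probe, saturated nowhere, read -0.24 and -0.06 in TKO_26, 0.05 and 0.13 in TKO_29, and -1.84 and -1.02 in WT. On it all TKO arrays were higher, by 1.28 ± 0.29 in TKO_26 (2.42-fold, adjusted p = 0.0412) and 1.52 ± 0.29 in TKO_29 (2.86-fold, adjusted p = 0.0184). The WT arrays lay far apart, and the call was lost in at least 1 line when WT replicate 1 or any TKO array was left out, with TKO_26 at 0.87 without WT replicate 1 and 1.19 to 1.37 without a TKO array (adjusted p = 0.0665 to 0.116).

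**Figure D3:**
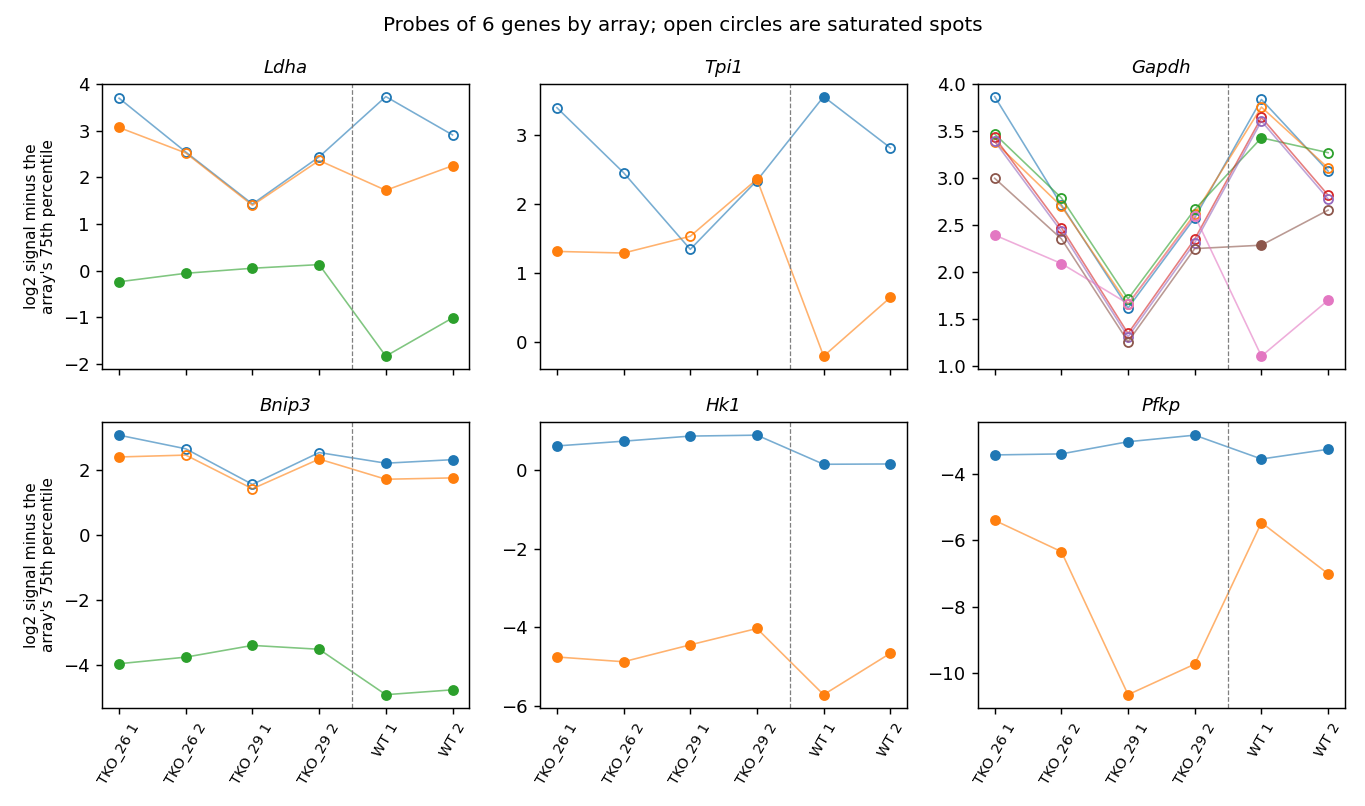
Scaled signal (log2, y axis) of each probe of 6 members by array (x axis), TKO arrays left of the dashed line and WT arrays right of it; open circles are saturated spots and each line joins 1 probe. The dimmest Ldha probe and the dimmer Tpi1 probe are higher on all 4 TKO arrays, the saturated probes follow the ceiling, and the dimmer Pfkp probe is at -10.64 and -9.72 in TKO_29.

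Eno2, the neuronal enolase, lay on the other side. It read -2.66 and -2.75 in TKO_26, -2.67 and -2.52 in TKO_29, and -2.16 and -2.41 in WT. All TKO arrays lay below WT, by -0.42 (adjusted p = 0.117) and -0.31 (adjusted p = 0.167), neither past the test. Neural markers differed as well, but not all one way. Of 7, 2 fell (Tubb3 and Ncam1), and Nes was lower, by -0.72 and -0.74, under 2-fold. Sox1 was higher, by 1.096 in TKO_26 (adjusted p = 0.114) and 1.904 in TKO_29 (adjusted p = 0.0211). Pax6 was at least 0.969 higher in TKO_26 (adjusted p = 0.0747) and at least 1.108 in TKO_29 (adjusted p = 0.0435). Map2 and Neurod1 give no fold. Brighter markers weigh more in the summed linear signal of the 7. It was 0.786 to 0.865 in TKO_26, 0.802 to 0.860 in TKO_29 and 1.46 to 1.60 in WT.

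Pdk1 phosphorylates pyruvate dehydrogenase and so keeps pyruvate out of the citric acid cycle. It read -0.38 and -0.57 in TKO_26, -0.35 and -0.44 in TKO_29, and -1.71 and -1.44 in WT. The TKO lines overlapped each other and stood clear of WT, with 1.101 ± 0.16 in TKO_26 (2.14-fold, adjusted p = 0.0122) and 1.18 ± 0.16 in TKO_29 (2.27-fold, adjusted p = 0.00737). The call in TKO_26 was lost without WT replicate 1 (0.97, adjusted p = 0.0556) or TKO_26 replicate 1 (1.01, adjusted p = 0.0503), and in TKO_29 without TKO_29 replicate 1 (1.14, adjusted p = 0.0548). Both were lost without the filter on dim probes (adjusted p = 0.127 in TKO_26 and 0.0731 in TKO_29).

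The oxygen sensors are prolyl hydroxylases, whose own genes are HIF targets. Egln1 was near background, at -5.90 and -5.14 in TKO_26, -4.82 and -4.62 in TKO_29, and -7.65 and -5.99 in WT. It was not well above background on TKO_26 replicate 1 and WT replicate 1, which allows no fold in TKO_26 and at least 3.33-fold higher in TKO_29 (adjusted p = 0.0505). Under 8 of 14 alternatives TKO_29 passed, and over all 14 the adjusted p ran from 0.0187 to 0.170. Egln3 read -2.46 and -2.49 in TKO_26, -2.28 and -2.35 in TKO_29, and -2.60 and -2.73 in WT on its brighter probe, differences of 0.19 and 0.35 that did not pass. Its dimmer probe differed by 0.54 (adjusted p = 0.0444) and 0.95 (adjusted p = 0.00763), under 2-fold in both lines.

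Bnip3 marks mitochondria for removal by autophagy, and Ndrg1 and Ddit4 are stress genes, Ddit4 a brake on the growth kinase mTORC1. The only Bnip3 probe free of saturation read -3.97 and -3.77 in TKO_26, -3.41 and -3.53 in TKO_29, and -4.93 and -4.78 in WT. The TKO arrays were all higher, by 0.98 ± 0.15 in TKO_26 (1.97-fold, adjusted p = 0.0135) and 1.38 ± 0.15 in TKO_29 (2.61-fold, adjusted p = 0.0043), so TKO_26 missed the 2-fold limit by little. The brighter Bnip3 probes were saturated on 2 and 3 of the 4 TKO arrays and on no WT array. They were at least 1.62-fold and 1.51-fold higher in TKO_26, without passing.

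Ndrg1 read 0.34 and 0.23 in TKO_26, 0.28 and 0.27 in TKO_29, and -0.38 and -0.40 in WT. Both lines were higher by a like amount, 0.67 (adjusted p = 0.0225) and 0.66 (adjusted p = 0.0162), under 2-fold. With normexp and quantile normalisation the TKO_26 difference was 0.05, and with the authors' deposited matrix it was 0.06, while the TKO_29 difference was 0.61 and 0.63 under these, with adjusted p of 0.192 and 0.136. Without the filter on dim probes the adjusted p was 0.233 in TKO_26 and 0.153 in TKO_29. Leaving out either WT array or either TKO_29 array also raised the TKO_29 adjusted p past the threshold (0.0549 to 0.0868). Ddit4 was saturated on all arrays but WT replicate 1 and gives no fold.

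Car9, a carbonic anhydrase with a part in acid balance, was close to background: -7.27 and -5.59 in TKO_26, -5.95 and -5.88 in TKO_29, and -6.44 and -6.96 in WT. The arrays of TKO_26 spanned those of WT, and the 0.78 of TKO_29 did not pass (adjusted p = 0.321). Adm, the vessel-widening peptide adrenomedullin, read -4.35 and -4.23 in TKO_26, -4.14 and -4.26 in TKO_29, and -4.81 and -5.01 in WT. It was higher on all TKO arrays, by 0.62 (adjusted p = 0.042) and 0.71 (adjusted p = 0.0205).

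For Vegfa, the main growth factor of blood vessels, the differences were small. Its brighter probe read -0.41 and -0.61 in TKO_26, -0.31 and -0.16 in TKO_29, and -0.56 and -0.55 in WT, differences of 0.05 and 0.32 that did not pass, and TKO_26 overlapped WT. A dimmer probe differed by 0.27 and 0.41, also without passing. Markers of endothelium, the cells that VEGF acts on, fell in 7 of 8 cases, all but Pecam1. The summed linear signal of the 8 was 0.0677 to 0.0946 in TKO_26, 0.0698 to 0.0792 in TKO_29 and 2.45 to 2.61 in WT.

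P4ha1 and P4ha2 encode prolyl hydroxylases of collagen. P4ha2 read -1.17 and -1.46 in TKO_26, -0.97 and -1.09 in TKO_29, and -1.67 and -1.55 in WT. It was higher on all TKO arrays, by 0.30 (adjusted p = 0.239) and 0.58 (adjusted p = 0.0434). P4ha1 read -3.06 and -3.04 in TKO_26, -2.89 and -3.11 in TKO_29, and -3.01 and -3.08 in WT, groups that overlapped throughout (-0.01 and 0.05). Of 8 markers of fibroblasts and feeder cells, which make collagen, 4 fell (Col3a1, Pdgfrb, Twist2 and Lum). Thy1 was higher, by 0.77 in TKO_26 (adjusted p = 0.0169) and 0.69 in TKO_29 (adjusted p = 0.0153), under 2-fold. Col1a2 differed by 0.20 and 0.28 and Col1a1 by -0.33 and -0.41, without passing. The summed linear signal of the 8 was 2.78 to 3.05 in TKO_26, 2.91 to 3.17 in TKO_29 and 4.67 to 5.43 in WT. A second P4ha1 probe was near background and gives no fold.

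**Figure D4:**
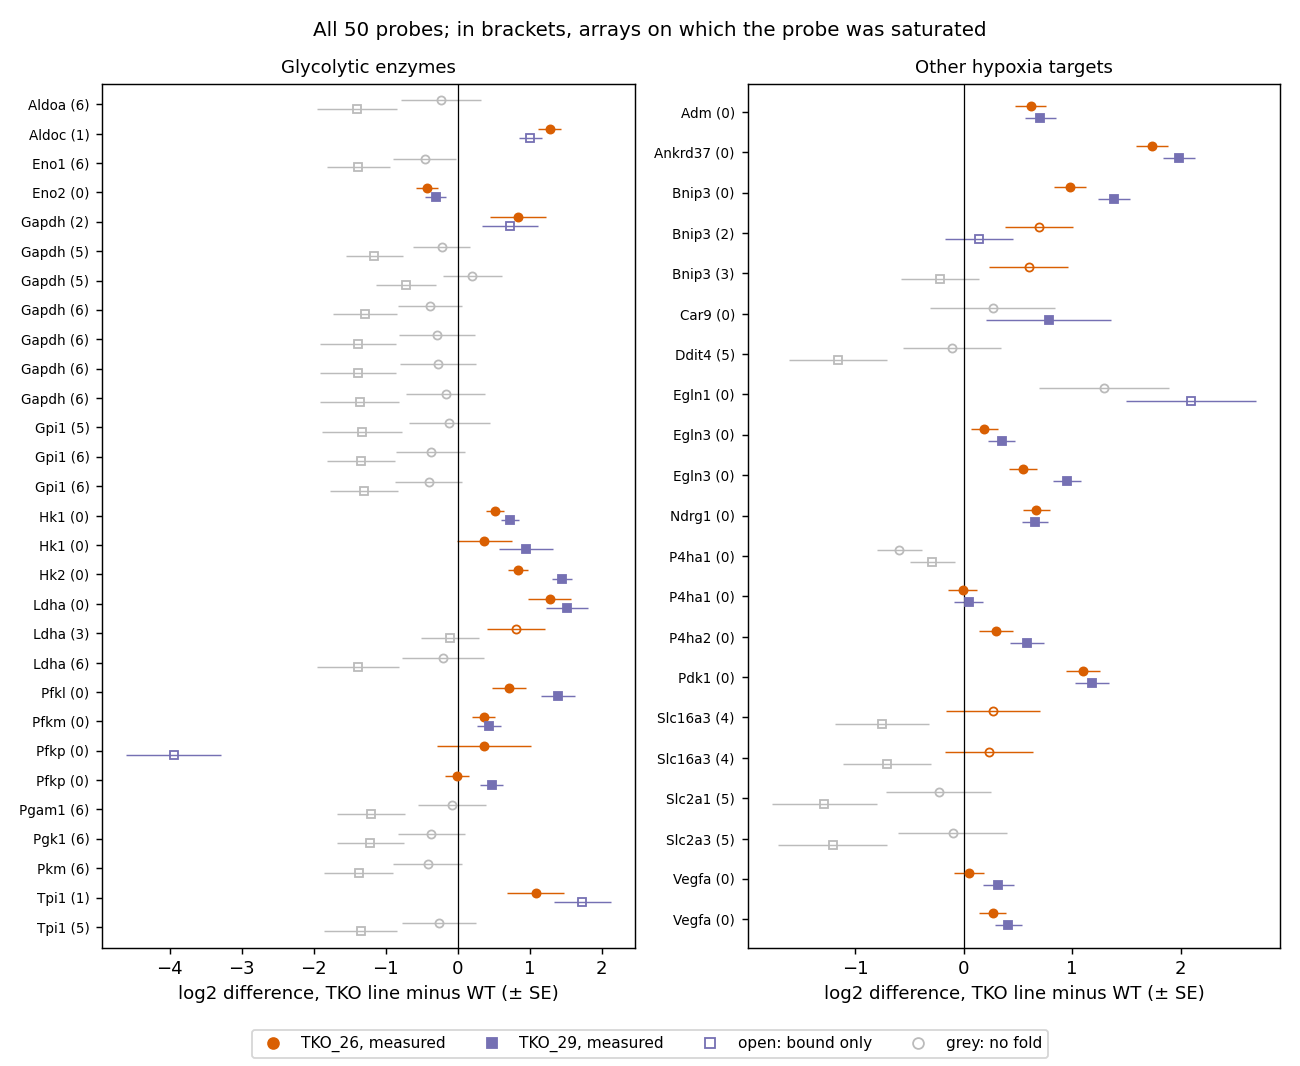
Fitted log2 difference of each TKO line from WT (x axis, bars ± SE) for all 50 probes (y axis, gene with the number of arrays on which the probe was saturated); filled marks were measured, open coloured marks are drawn at the fitted difference but give only a bound, and grey marks give no fold. The marks of probes saturated on 5 or 6 arrays cluster below 0 in TKO_29, and most marks of unsaturated probes lie above 0.

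The TKO lines were also set against each other, a comparison in which WT cancels. None of the 31 members was called, against 0.477% of all genes and features, and 3 had an unadjusted p under 0.05 in limma, all higher in TKO_29. These were Hk2 (0.62, adjusted p = 0.103), Pfkl (0.69, adjusted p = 0.188) and Pfkp on its brighter probe (0.48, adjusted p = 0.183). The dimmer Pfkp probe went the other way, with a fitted -4.31 (adjusted p = 0.0644). It was not well above background on either TKO_29 array, so this is no measured size. The share of all genes and features at this unadjusted limit was not computed, so the 3 have no baseline.

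With each line counted as 1 sample, 2 TKO lines against 1 WT line, limma called none of the 31 members, against 0.796% of all genes and features. The fitted mean differences ran from -0.92 for Eno1, whose probe was saturated on all arrays and gives no fold, to 1.86 for Ankrd37. This fit has 1 line behind WT, so it assumes that WT lines would vary as the TKO lines do.

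Among 17 other glycolysis genes with an unsaturated probe none rose and 4 fell, among them the hexokinase-like Hkdc1 (-3.77 in TKO_26 and -3.82 in TKO_29), the insulin-regulated glucose transporter Slc2a4 (-2.45 and -2.53) and the muscle mutase Pgam2 (-1.38 and -1.42). These 3 are forms used by particular tissues. Without meeting the rule in both lines, Pfkfb3 (0.87 in TKO_26 and 0.90 in TKO_29) and Pfkfb1 (0.59 and 0.88) were higher. Pfkfb4 was lower (-0.82 and -1.06), and all of these had an adjusted p under 0.05 in both lines. The median fitted difference of the 17, genes near background included, was -0.43 in TKO_26 and -0.55 in TKO_29. Of all genes and features with an unsaturated probe, 4.55% rose and 6.69% fell, shares that also stand beside the lists below.

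Of 9 regulators of the HIF pathway none rose and 1 fell, Epas1, which encodes HIF-2 alpha. It read -2.05 and -0.67 in TKO_26, -1.08 and -1.36 in TKO_29, and 0.99 and 1.13 in WT, that is -2.43 (adjusted p = 0.0263) and -2.29 (adjusted p = 0.0209). Epas1 is known from endothelium, of whose markers 7 of 8 fell too, and the part of endothelium in its difference was not tested. Hif1a, the other main oxygen-sensitive subunit, differed by -0.03 in TKO_26 and 0.64 in TKO_29 (adjusted p = 0.0381).

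Of 21 further hypoxia targets with an unsaturated probe 2 rose and none fell. Ak4, a mitochondrial adenylate kinase, read 1.21 and 1.27 in TKO_26, 1.20 and 1.19 in TKO_29, and -0.18 and -0.12 in WT, differences of 1.39 and 1.34. Jmjd6, a lysyl hydroxylase, differed by 1.07 and 1.47. The median fitted difference of the 21, genes near background included, was 0.26 in TKO_26 and 0.39 in TKO_29. None of 5 pentose phosphate, 13 citric acid cycle or 6 respiratory chain genes with an unsaturated probe rose or fell. The largest mean differences were those of Pgls (0.64 and 0.69) among the pentose phosphate genes and Suclg2 (0.88 and 1.28) among the citric acid cycle genes. Saturation left only 6 of 23 respiratory chain genes in that count.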

How the data were processed

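Total RNA was labelled with Cy3 and hybridised to one-colour Agilent arrays, per the labels' protocols. Per the file headers, Agilent Feature Extraction 10.5.1.1 gave each spot's processed intensity after background subtraction and detrending inside each array, with no scaling across arrays, and flagged saturated, outlying and well detected spots. A value matrix in log2 units was deposited too; how it was made is not stated in the labels or headers, and its columns correlated with the log2 median signals of their own arrays (Pearson r 0.995 to 1.00; for TKO_29 replicate 1, 0.9962 against 0.9963 with another array, which does not tell them apart).

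Control spots and outlier spots were left out, saturated spots kept and repeated spots averaged, which left 55418 of 55681 probes. Probes were named by accession through a RefSeq table (GRCm38.p6), and 49.4% got a name. Log2 processed signals were scaled by subtracting the array's own 75th percentile, taken over 19178 probes that all 6 arrays showed well above background. Tests took in each probe that passed this flag on both arrays of some line. In R 4.3.3, limma 3.58.1 (lmFit, eBayes, 3 residual degrees of freedom, Benjamini-Hochberg) fitted 6 arrays in 3 groups, and a second fit used line averages. Each gene was counted through its brightest tested probe by mean signal. Bounds ("at least") were used where a probe was saturated on an array of the brighter group, or where an array of the dimmer group was not well above background; for the latter, each such array took the higher of its own signal and its lowest signal well above background. No fold is given where both groups were saturated, both had an array not well above background, or the ceiling lay below the other group.

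All members are named. From the neighbouring lists, genes were named if called in both lines, up to 4 by size, or else the one with the largest mean difference. Hif1a, Pfkfb1, Pfkfb3 and Pfkfb4 were added after their values were seen. The members and lists were chosen with earlier results of these data known. Simulated arrays of 25893 probes based on TKO_26 against WT, with 200 probes raised and 5 draws, were called by adjusted p alone. They recovered 3.2% of changes of 1.0, 34.4% of 1.5 and 70.4% of 2.0 on the log2 scale, with 3.6 false calls. In the data 11.2% of genes and features were higher and 12.0% lower in TKO_26 at that limit, far more than the 200. With so few changes the adjusted p is stricter, so these shares do not give the power of the tests above. Alternatives were another percentile, normexp (offset 50) with quantile normalisation, the deposited matrix, other filters, a variance trend, a replicate block, the mean over probes, and each array left out. Figures used Python 3.11.15, pandas 2.3.3, numpy 2.4.6 and matplotlib 3.10.9. A few genes of the context lists are counted but not reported here by name.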

Additional observations from a re-analysis of the deposited data

How the results depend on the processing

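Leaving out saturated probes changed the enzyme median most. It was -0.68 (mean of the TKO lines minus WT) for 16 enzymes on the highest-signal probes. For the 7 enzymes with a probe saturated on no array it was 0.62, whether these probes were fitted alone or within the full fit. For the other targets the values were 0.27 (15 genes) and 0.66 (11 genes). Each pair of medians covers different sets of genes, so its shift is not only a different reading of the same genes. The enzyme median was -0.066 with normexp and quantile normalisation and -0.043 with the deposited matrix, and the other targets' median was 0.51 with the mean over probes. Without the filter on dim probes, 1 member was called in TKO_26, 2 in TKO_29 and 1 in both lines, and the calls of Aldoc, Pdk1, Pfkl, Ldha and Bnip3 were lost. On line averages 2 were called with the deposited matrix and 2 with the variance trend. Averaging the Pfkp probes gave a fitted -1.74 in TKO_29, which is no measured size, since the dim probe was not well above background on either TKO_29 array. With each array left out in turn, the calls on highest-signal probes ranged from 2 to 4 in TKO_26, 3 to 5 in TKO_29, 1 to 4 in both lines and 0 to 1 on line averages, and the medians from -1.04 to -0.33 for enzymes and 0.25 to 0.41 for other targets. On unsaturated probes the ranges were 1 to 5 in TKO_26, 4 to 6 in TKO_29, 1 to 5 in both lines and 0 to 1 on line averages. The settings on unsaturated probes within the full fit were chosen after seeing the data. Over 564 values of 19 members in single lines, 524 kept their side of the threshold, 27 lost a call, 12 gained one and 1 reversed. A result not called in the main fit cannot lose a call, and most of the 38 results behind these values were of that kind. The 524 is therefore no measure of stability: Ndrg1 in TKO_26 counts as kept throughout, although its difference ran from 0.05 to 0.76. The replicate block gave 3 calls in TKO_26, 6 in TKO_29 and 3 in both lines. Arrays with the same number did not deviate together (correlations of 0.13 between TKO_26 and WT, -0.00 between TKO_29 and WT and -0.14 between TKO_29 and TKO_26), so the numbers do not pair the arrays. For 13 members no probe was free of saturation, which limits them to bounds or to no fold in at least 1 line.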
